A study of Mus musculus with 32 samples.

Results

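Transcription factors that pattern the embryonic midbrain and its borders were followed in the adult mouse brainstem. The set of 10 genes was Tcf7l2, Lhx9, Foxa1, Lhx2, En2, Pax7, Otx2, Pou4f1, Meis2 and Lef1, and every probe set annotated to exactly 1 of these symbols was taken. That gave 13 of the 22626 probe sets tested and 9 of the 12393 genes with a probe set of their own. Tcf7l2 had 4 probe sets, Lhx9 had 2 and each of the other genes had 1. Pou4f1, a POU-domain factor of habenula and sensory neurons, was matched by none and was not analysed here. Where a gene had several probe sets, the one with the highest mean intensity stands for it.

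The 32 Affymetrix arrays held 8 groups of 4. Midbrain and medulla were taken from each of 16 mice, which were either controls or mutants lacking the cholecystokinin B receptor gene Cckbr (KO), and which had been operated on, as a sham or to set a chronic constriction injury (CCI). CCI is a model of neuropathic pain in which ligatures are tied loosely around a peripheral nerve. The groups are named below by genotype, operation and region, for example KO CCI midbrain. Strain, age, the mutant allele and the time after the operation are not given in the sources used here, and the sham operation is shared by both genotypes' uninjured groups. The comparison of regions asks which factors differ between midbrain and medulla, and those of genotype and operation ask whether the receptor or the injury changes them.

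These genes encode DNA-binding proteins of several families. Otx2 marks the fore- and midbrain territory and En2 the zone on both sides of the border between midbrain and hindbrain, while Pax7 is a factor of the dorsal midbrain and Foxa1 of the floor plate and the dopamine neurons that arise there. LIM-homeodomain proteins such as Lhx2 and Lhx9, together with the Wnt pathway's DNA-binding partners Tcf7l2 and Lef1, are known from thalamus, pretectum and tectum, and Meis2 is a TALE homeodomain cofactor. Several of them stay expressed in neurons of the adult brain.

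The targeted gene and the region markers followed the labels. Cckbr had a mean intensity of 152 ± 11.9 (SD, n = 4) in control sham medulla and 152 ± 21.2 (n = 4) in control sham midbrain, against 13.8 ± 7.70 (n = 4) and 8.13 ± 6.60 (n = 4) in the KO sham groups. The values are the authors' linear, background-subtracted intensities, which have no further unit and can fall below 0. Slc6a3, the dopamine transporter, had 578 ± 74.4 (SD, n = 16) in the midbrain and 4.78 ± 8.0 in the medulla, and the hindbrain gene Hoxb5 had 0.884 ± 10.4 in the midbrain and 354 ± 126 in the medulla. Array medians lay between 91.1 and 100, and arrays of 1 group correlated at 0.962 to 0.989. On the first principal component, computed in each region by itself, KO sham medulla 3 stood apart with 60.6, where the next medulla array had 2.30. In the midbrain KO sham midbrain 2 and 4 were lowest, with -36.0 and -26.4, and the highest array had 21.9. KO sham medulla 3 also read 1077 for Gabra6 and 879 for Neurod1, genes of cerebellar granule cells. Where it was computed, a result that rests on these arrays is given with and without them.

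Midbrain exceeded medulla for most of the set. Differences are in log2(intensity + 16) after quantile normalisation, so that they understate the change of dim genes. Adjusted p is limma's, with Benjamini-Hochberg adjustment over all 22626 probe sets and a threshold of 0.05. Of the 13 probe sets, 10 were higher in the midbrain, 1 was lower and 2 did not pass. Among all probe sets tested, 10.5% were higher and 11% lower. By gene, Tcf7l2, Lhx9, Foxa1, Lhx2, Otx2 and En2 were higher, Meis2 was lower, and Pax7 and Lef1 did not pass. The median difference over the 9 genes was 1.20, where that over all probe sets was 0.01. On 8 of the 13 probe sets (61.5%) the lowest of the 16 midbrain arrays exceeded the highest of the 16 medulla arrays, as on 0.698% of all probe sets. The members were chosen with earlier results of these data known, so these shares describe the set and are no independent test of it. These are tissue extracts, in which fewer cells of a type and less RNA per cell cannot be told apart.

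**Figure D1:**
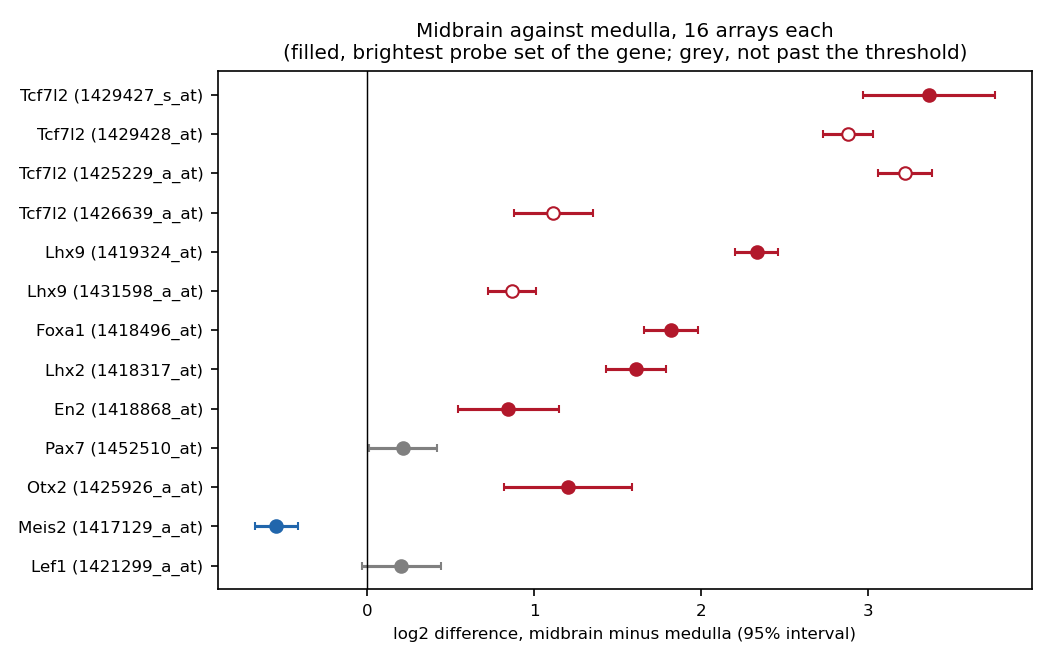
Difference in log2(intensity + 16) between 16 midbrain and 16 medulla arrays for the 13 probe sets, with 95% intervals from limma; filled points are the brightest probe set of each gene, and grey marks the probe sets that did not pass. The Tcf7l2 probe sets reached 3.36, Meis2 lay at -0.54, and Pax7 (0.21) and Lef1 (0.21) lay close to 0.

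Short motifs that proteins of the same families bind were searched for upstream of the starts of these genes. Windows that hold a match are shown for Otx2, Foxa1, Lhx9 and Tcf7l2. RefSeq start sites of build GRCm38.p6 gave 17 windows of 250 bases upstream for 9 of the 10 genes; En2 had none in the table. Each window was searched on both strands for TAATTA (homeodomain core), TAATCC (OTX class), TGTTTAC (forkhead), CTTTGAT and CTTTGAA (TCF/LEF) and TGACAG (MEIS). Every window shown lies inside the span of its gene, and so precedes a start within the gene and not its outermost start. The motifs are written below in capitals, 5′ to 3′ on the gene's strand, and a match on the other strand reads as its reverse complement.
Otx2, second of 4 windows, chr14:48665110-48665359, minus strand: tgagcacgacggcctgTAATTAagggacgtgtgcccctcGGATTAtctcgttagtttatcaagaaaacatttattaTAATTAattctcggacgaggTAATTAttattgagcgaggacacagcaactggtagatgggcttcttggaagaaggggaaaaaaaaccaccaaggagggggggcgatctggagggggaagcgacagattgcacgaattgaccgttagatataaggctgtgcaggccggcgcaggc
Foxa1, chr12:57546112-57546361, minus strand: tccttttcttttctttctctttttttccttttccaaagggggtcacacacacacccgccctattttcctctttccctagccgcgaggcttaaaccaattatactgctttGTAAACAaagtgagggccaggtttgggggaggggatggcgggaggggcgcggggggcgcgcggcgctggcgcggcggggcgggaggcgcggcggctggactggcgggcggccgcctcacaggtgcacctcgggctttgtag
Lhx9, chr1:138842445-138842694, minus strand: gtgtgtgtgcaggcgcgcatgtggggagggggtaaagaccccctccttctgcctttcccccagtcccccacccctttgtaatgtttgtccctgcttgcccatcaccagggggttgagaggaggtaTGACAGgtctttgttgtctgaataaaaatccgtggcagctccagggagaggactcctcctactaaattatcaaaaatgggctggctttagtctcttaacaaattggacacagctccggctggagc
Tcf7l2, second of 2 windows, at a start inside the gene, chr19:55895071-55895320, plus strand: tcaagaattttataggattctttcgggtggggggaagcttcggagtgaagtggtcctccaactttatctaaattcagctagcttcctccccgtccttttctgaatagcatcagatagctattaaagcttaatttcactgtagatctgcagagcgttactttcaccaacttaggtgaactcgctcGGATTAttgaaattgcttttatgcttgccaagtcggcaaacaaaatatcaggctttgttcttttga

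The Otx2 window shown held TAATTA at 3 positions and TAATCC at 1, on the opposite strand, and the last of the 4 Otx2 windows held TAATTA at 1. Of all 32851 windows of this length, 4.84% held TAATTA and 6.25% held TAATCC. Of the 17 member windows, some of which overlap, 2 held TAATTA, 2 held TAATCC, 1 held TGTTTAC and 3 held TGACAG. The Foxa1 window held TGTTTAC once in reverse complement, a motif found in 3.17% of all windows. TGACAG was in the Lhx9 window and in 15.9% of all windows, and among the other member windows in those of Pou4f1 and Lef1. TAATCC was in the Tcf7l2 window in reverse complement. CTTTGAT (3.21% of all windows) and CTTTGAA (4.46%) were in none of the 17. The windows of Lhx2, Meis2 and Pax7 and the first window of Tcf7l2, which are not shown, held none of the motifs searched. A match is a string of letters in this window and says nothing of binding.

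Among the Wnt pathway factors, Tcf7l2 had some of the largest regional differences on the array. Tcf7l2 (chr19:55741797-55933659) encodes the HMG-box protein TCF7L2, which takes β-catenin to Wnt target genes and is a known marker of thalamus and habenula. Probe set 1429428_at read 332 at the lowest, 384 at the median and 450 at the highest of the 16 midbrain arrays, and 12.7, 42.4 and 51.1 in the medulla. The regions did not overlap. The mean was 387 ± 34.9 (SD, n = 16) in the midbrain and 39.5 ± 9.25 (n = 16) in the medulla, a log2 difference of 2.88 (SE 0.07, limma adjusted p = 9.02e-22).

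The other Tcf7l2 probe sets had the same direction and did not overlap between regions. On 1429427_s_at, the brightest, midbrain arrays read 378, 585 and 1552 at the lowest, median and highest, and medulla arrays -2.82, 51.1 and 81.3, a log2 difference of 3.36 (SE 0.19, adjusted p = 1.12e-13). On 1425229_a_at midbrain arrays read 86.5, 135 and 237, while 15 of the 16 medulla arrays were at or below 0. The size of its log2 difference therefore follows the added constant, with 3.22 (adjusted p = 6.09e-22) for 16, 6.99 for 1 and 1.63 for 64, and it is no estimate of the fold. On 1426639_a_at the midbrain read 31.5, 58.9 and 93.6 and the medulla -0.528, 21.4 and 30.3, with 1.11 (SE 0.12, adjusted p = 1.99e-08). Among the probe sets with the midbrain higher, 1429427_s_at ranked 2 of 22626 on this scale and 1429428_at 4, the first being that of Slc6a3 (4.75).

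The brightest Tcf7l2 probe set varied among midbrain arrays in a way that its neighbour did not. Control sham midbrain read 390, 766, 430 and 675 on 1429427_s_at, control CCI 550, 586, 941 and 793, KO sham 491, 1552, 529 and 944, and KO CCI 378, 612, 472 and 584. The 3 highest values came from KO sham midbrain 2 and 4 and control CCI midbrain 3, which were also the 3 midbrain arrays lowest on the first principal component. On 1429428_at, designed on the same sequence record, these arrays read 344, 400 and 371, within the range of the others. Over the 16 arrays, after removing group means, the correlation between these probe sets was -0.06 in the midbrain, and with 1425229_a_at and 1426639_a_at that of 1429427_s_at was 0.69 and 0.79. The suffix _s_at is the manufacturer's mark for a probe set that may hybridise to transcripts of more than 1 gene. Without KO sham midbrain 2 and 4 the regional difference of 1429427_s_at was 3.20 (limma adjusted p = 8.03e-13).

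**Figure D2:**
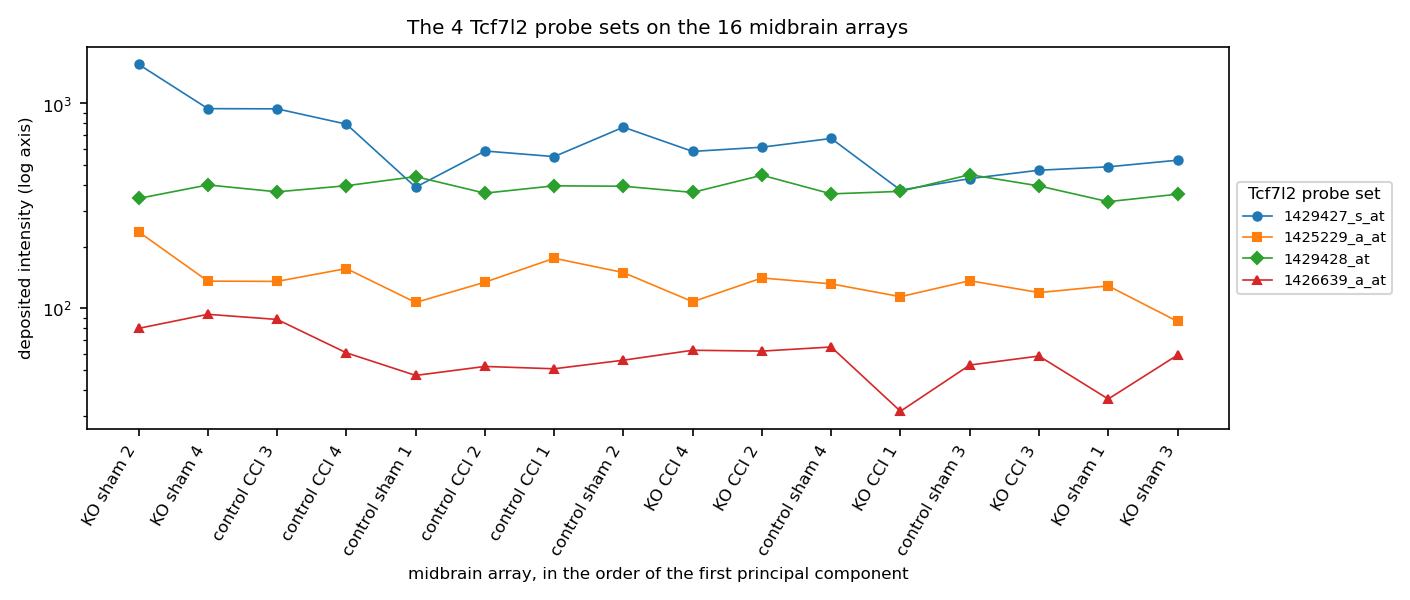
Deposited intensity (log axis) of the 4 Tcf7l2 probe sets on the 16 midbrain arrays, ordered by the first principal component of all probe sets, lowest at the left; levels are not comparable between probe sets. 1429427_s_at read 1552 on KO sham midbrain 2, while 1429428_at stayed between 332 and 450 on every array.

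Lef1 (chr3:131110297-131224357), the other HMG-box partner of β-catenin in the set and a known thalamic gene, did not differ past the threshold. Midbrain arrays read 19.8, 44.8 and 69.4 at the lowest, median and highest. Medulla arrays read 18.6, 34.7 and 62.4, so that the regions overlapped over most of their range. The log2 difference was 0.21 (95% interval -0.03 to 0.44, limma adjusted p = 0.228), and 11 of 16 mice, whose arrays were paired by their consecutive numbers, had the higher value in the midbrain.

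Genes that work with TCF and LEF proteins showed smaller differences. Of 19 measured partners and Wnt targets, 4 were higher in the midbrain, 2 were lower and 13 did not pass; their median difference was 0.12, where that of all probe sets was 0.01. Cacna1g, a T-type calcium channel gene, had 0.49 (SE 0.08, adjusted p = 1.85e-05), and Bcl9, a β-catenin coactivator, 0.39 (SE 0.07, adjusted p = 4.83e-05). Ctnnb1, which encodes β-catenin itself, had 0.13 (adjusted p = 0.00747), with a mean of 3221 ± 159 (SD, n = 16) in the midbrain and 2959 ± 196 in the medulla. Dkk3, of the Dickkopf family, fell by 0.43 (adjusted p = 5.96e-05) and Lgr5, an R-spondin receptor, by 0.28 (adjusted p = 0.00198). Axin2, a feedback target often read as a Wnt signal, had 0.14 (adjusted p = 0.148).

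The LIM-homeodomain factors Lhx9 and Lhx2 were both higher in the midbrain. Lhx9 (chr1:138825186-138848839), known from pretectum, tectum and thalamus, read 191, 225 and 264 at the lowest, median and highest midbrain array on 1419324_at, and 17, 31.1 and 46.9 in the medulla. All midbrain arrays lay above all medulla arrays, by a log2 difference of 2.33 (SE 0.06, limma adjusted p = 6.13e-21). The Lhx9 mean was 225 ± 19.5 (SD, n = 16) in the midbrain, and in the single groups it ran from 213 ± 15.9 (n = 4, KO CCI) to 234 ± 20.5 (n = 4, control CCI), a gap within the spread of the arrays. The dimmer probe set 1431598_a_at read 49.6, 63 and 80.4 in the midbrain and 17.9, 27.5 and 47.6 in the medulla, with 0.87 (SE 0.07, adjusted p = 1.78e-10). Over the 16 midbrain arrays the Lhx9 probe sets correlated at only 0.11.

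Lhx2 (chr2:38339271-38369737), a factor of cortex, hippocampus, eye and thalamus, read 90.9, 122 and 227 in the midbrain and 19.4, 31.5 and 35.4 in the medulla. Again the regions did not overlap, with a log2 difference of 1.61 (SE 0.09, limma adjusted p = 2.37e-14). The highest midbrain value came from control CCI midbrain 3. Lhx2 varied over the midbrain arrays together with markers of cortex and hippocampus, as given below.

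LIM factors act through cofactors, which moved less. Of 9 measured cofactors and POU4 partners, 3 were higher in the midbrain, 2 lower and 4 did not pass, with a median difference of 0.07. Ldb2, a LIM-domain-binding adaptor, had 0.81 (SE 0.07, adjusted p = 2.44e-10), from a mean of 327 ± 49.8 (SD, n = 16) against 179 ± 21.4. Lmo1, a LIM-only protein gene, had 0.53 (adjusted p = 2.13e-10). Lmo2 fell by 0.24 (adjusted p = 0.000327), and Isl1, a LIM-homeodomain factor of motor neurons, by 0.69 (adjusted p = 0.00026). The more widely used adaptor Ldb1 had 0.07 (adjusted p = 0.461).

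Foxa1 (chr12:57540628-57548029), the floor plate forkhead factor, was close to 0 in the medulla. Midbrain arrays read 26.5, 54.8 and 73.6 at the lowest, median and highest, and medulla arrays -0.819, 3.33 and 8.68. There was no overlap, and the log2 difference was 1.82 (SE 0.08, limma adjusted p = 2.92e-16). Because medulla values lay near 0, the size of this difference follows the added constant, with 3.78 for a constant of 1 and 0.79 for 64; every setting kept the call. Control midbrain arrays kept to 52.5 to 62.4, whereas KO midbrain arrays ran from 26.5 to 73.6; this difference in spread was not tested.

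Other genes of the floor plate and of dopamine neurons divided. Of 11 measured, 4 were higher in the midbrain, 2 lower and 5 did not pass, with a median difference of 0.15. Slc6a3 had 4.75 (SE 0.09, adjusted p = 3.61e-24), Th, the rate-limiting enzyme of dopamine synthesis, 1.94 (adjusted p = 4.81e-17) and Ddc, the next enzyme, 1.42 (adjusted p = 1.61e-16). Foxa2, the close paralogue of Foxa1, had 0.80 (SE 0.09, adjusted p = 4.36e-08), from 29.7 ± 5.30 (SD, n = 16) against 10.6 ± 5.32. Aldh1a1, a marker of ventral dopamine neurons, fell by 0.16 (adjusted p = 0.00157), and the dopamine factors Nr4a2 (-0.09, adjusted p = 0.582) and Pitx3 (0.11, adjusted p = 0.485) did not pass.

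Otx2 and En2 were higher in the midbrain with ranges that overlapped between regions, and Pax7 did not pass. Otx2 (chr14:48656781-48667644) read 81.9, 112 and 163 at the lowest, median and highest midbrain array and 8.80, 34.9 and 103 in the medulla. The regions overlapped in their middle range, the midbrain being higher in 15 of 16 mice, with a log2 difference of 1.20 (SE 0.19, limma adjusted p = 1.65e-05). En2 (chr5:28165696-28172190), a homeodomain factor that persists in midbrain dopamine and cerebellar granule cells, read 38.1, 64.7 and 85.6 in the midbrain and 17.2, 23.3 and 127 in the medulla. Its difference was 0.84 (SE 0.15, adjusted p = 8.29e-05), with the midbrain higher in 15 of 16 mice. Pax7 (chr4:139737059-139833530) had 0.21 (95% interval 0.01 to 0.42, adjusted p = 0.136), with the midbrain higher in 12 of 16 mice. Its arrays read 21.1 to 51.7 in the midbrain and 8.51 to 48.5 in the medulla.

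The array code in the descriptions divides the mice into a lower code, a higher code and 1 mouse with a code of its own. Keeping only the 8 arrays of the higher code in each region ended the calls of Otx2 and En2 in the comparison over all conditions. It ended that of no other member, and every other setting in which Otx2 and En2 were tested kept both calls. Within single conditions, where few arrays of a code remain, calls of other members ended too. Among arrays of the higher code alone, Otx2 had 0.97 (limma adjusted p = 0.0799) and En2 0.68 (adjusted p = 0.126). Among those of the lower code they had 1.42 (adjusted p = 0.00705) and 1.01 (adjusted p = 0.00432).

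Meis2 (chr2:115861264-116067537), a TALE homeodomain cofactor of HOX and PBX proteins, was the only member lower in the midbrain. Midbrain arrays read 414, 545 and 648 at the lowest, median and highest, and medulla arrays 640, 800 and 976. Only the edges of the ranges touched, and all 16 mice had the lower value in the midbrain. The log2 difference was -0.54 (SE 0.06, limma adjusted p = 1.23e-07), or 1.46-fold lower. Its paralogue Meis1 had -1.02 (SE 0.06, adjusted p = 5.62e-14), with 116 ± 16 (SD, n = 16) in the midbrain and 252 ± 22.1 in the medulla. The HOX genes that MEIS proteins partner were lower too: of 18 measured hindbrain identity genes 14 were lower in the midbrain, none higher and 4 did not pass, led by Hoxb5 (-4.11), Hoxa5 (-4.07), Hoxb6 (-2.81) and Hoxc4 (-2.72).

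**Figure D3:**
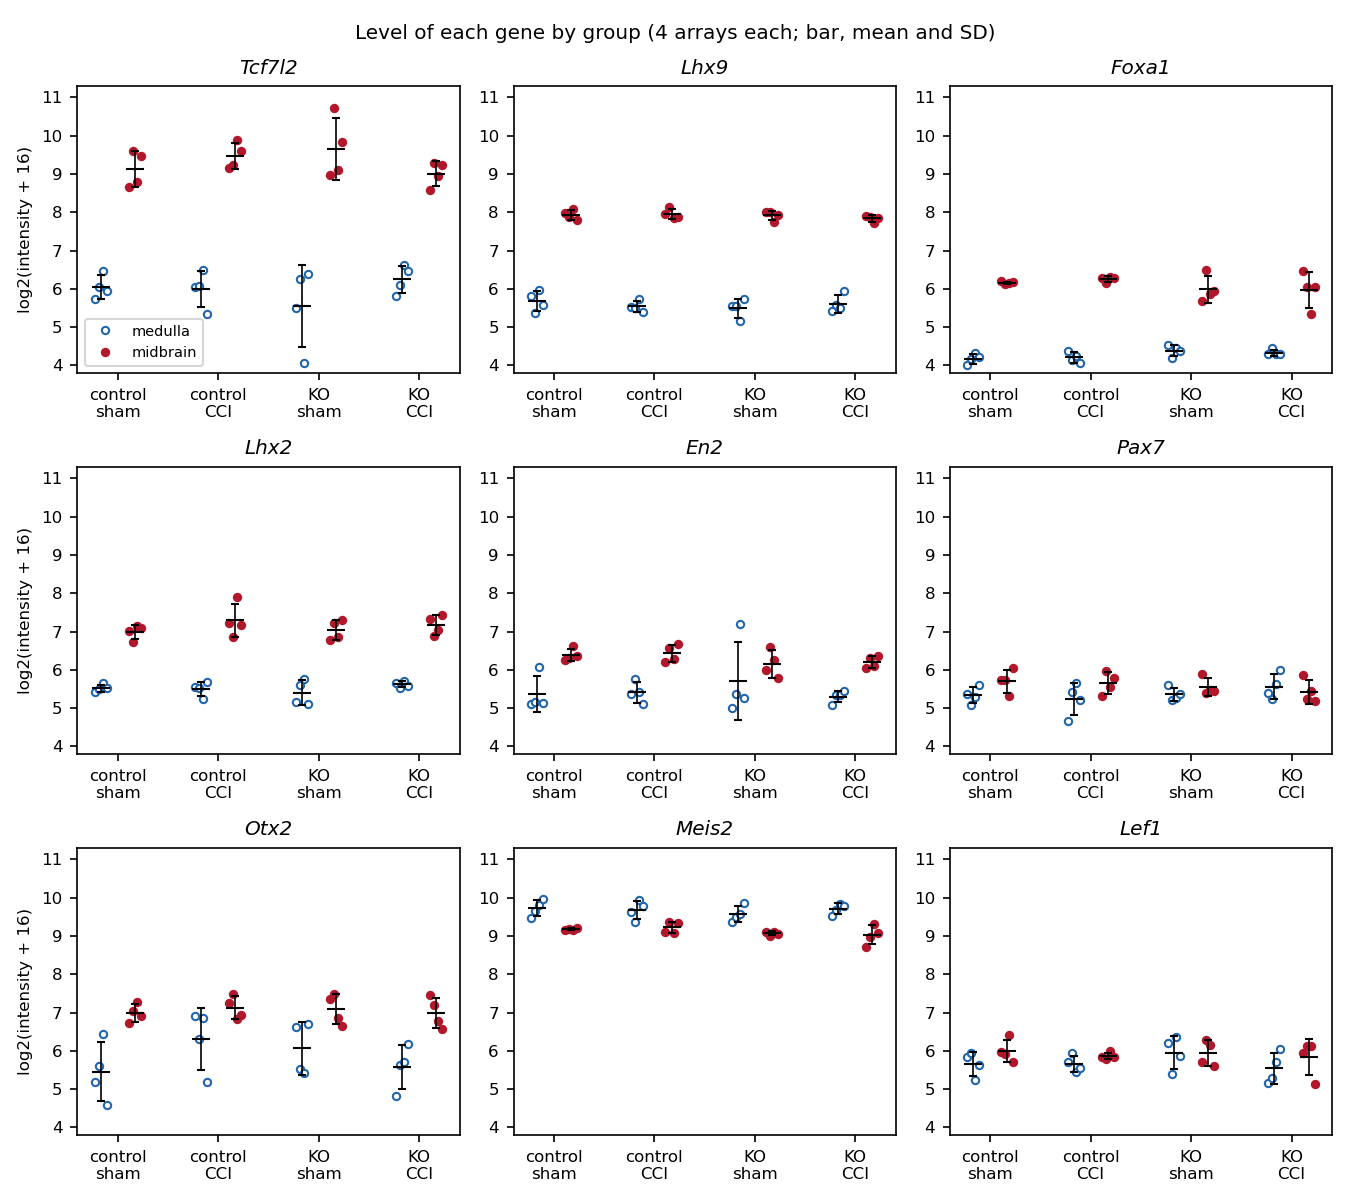
Level of each of the 9 genes, as log2(intensity + 16) of its brightest probe set, in the 4 medulla (open) and 4 midbrain (filled) arrays of each genotype and operation, with the mean and SD; levels are not comparable between genes. Tcf7l2, Lhx9, Foxa1 and Lhx2 keep the regions apart in all 4 conditions, Otx2 overlaps in control CCI and KO sham mice and En2 in KO sham mice, and Meis2 runs the other way.

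Other patterning genes of the midbrain and isthmus divided into both directions. Of 33 measured, 9 were higher in the midbrain, 5 lower and 19 did not pass, with a median difference of 0.00. Tfap2d, an AP-2 factor of the tectum, had 1.54 (SE 0.08, adjusted p = 6.89e-15) and Tfap2b 0.84 (adjusted p = 1.9e-09). En1, the paralogue of En2, had 1.43 (SE 0.11, adjusted p = 2.5e-11), from 46.8 ± 8.93 (SD, n = 16) against 7.56 ± 7.45. Of the isthmus signals, Fgf8 had 0.08 (adjusted p = 0.481) and Wnt1 0.22 (adjusted p = 0.39). Of 15 measured factors of midbrain GABA neurons and tegmental nuclei, 5 were higher, 4 lower and 6 did not pass, with a median difference of 0.03. Gata3 had 1.52 (SE 0.10, adjusted p = 2.49e-12), Tal1 1.45 (SE 0.08, adjusted p = 5.84e-14) and Zfpm2, a GATA cofactor, 0.63 (adjusted p = 8.46e-10), and Isl1 belongs to this list as well.

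The regional difference held for 5 genes in every condition. In control sham mice 10 probe sets of the set passed (3.21% of all probe sets did), in control CCI mice 10 (4.37%), in KO sham mice 9 (7.11%) and in KO CCI mice 9 (4.76%). By the brightest probe set of each gene, Tcf7l2, Lhx9, Foxa1 and Lhx2 were higher, and Meis2 lower, in all 4. For Lhx9 the log2 difference was 2.26, 2.41, 2.43 and 2.23 in the order just given, each with SE 0.13, and for Tcf7l2 on 1429428_at 2.93, 2.79, 2.96 and 2.84 (SE 0.14). Foxa1 had 1.98, 2.05, 1.60 and 1.65 (SE 0.16), and Lhx2 1.47, 1.79, 1.63 and 1.54 (SE 0.17). Meis2 had -0.54, -0.45, -0.50 and -0.68 (SE 0.12). The dimmer Tcf7l2 probe set 1426639_a_at did not pass in KO CCI mice, with mean log2 levels of 6.07 in the midbrain and 5.44 in the medulla. Whether the regional difference itself changed with genotype or operation is tested below.

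Otx2 and En2 passed in some conditions and not in others. Otx2 had 1.54 (limma adjusted p = 0.0149) in control sham and 1.42 (adjusted p = 0.0219) in KO CCI mice, and 0.82 (adjusted p = 0.288) in control CCI and 1.02 (adjusted p = 0.0983) in KO sham mice. En2 had 1.02 (adjusted p = 0.0451) in control CCI and 1.02 (adjusted p = 0.0555) in control sham mice, 0.90 (adjusted p = 0.0852) in KO CCI and 0.45 (adjusted p = 0.416) in KO sham mice. Without KO sham medulla 3 the difference of group means in KO sham mice was 0.95 in place of 0.45. With the mouse as a replicate block, En2 in control CCI mice had an adjusted p of 0.0643, and Tcf7l2 on 1426639_a_at in control sham mice, at 0.89, went from 0.025 to 0.0738. These calls were unsteady: leaving out 1 array at a time ended that of En2 in control CCI mice in 22 of 32 omissions. It ended that of Tcf7l2 1426639_a_at in control sham mice in 4 of 32. The Otx2 calls ended without control sham medulla 1 or 4 or midbrain 3, and without KO CCI medulla 1 or midbrain 1 or 2. The Meis2 call ended in control CCI mice in 5 of 32 omissions (medulla 1, 3 or 4, or midbrain 1 or 3 of that group), and in the sham groups without control sham medulla 4 or KO sham medulla 4.

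Neither the loss of Cckbr nor the injury changed a member past the threshold. Loss of the receptor was compared over both operations, in 8 KO against 8 control arrays of each region. In the midbrain 0 of the 13 probe sets passed (0.0309% of all probe sets did) and 0 had an unadjusted limma p under 0.05. In the medulla 0 passed (0.053% of all) and 1 had such a p, Foxa1 with 0.17 (95% interval 0.02 to 0.31, adjusted p = 1), at medulla levels of 2.39 ± 2.15 and 2.57 ± 1.96 (SD, n = 4) in the control groups and 4.39 ± 3.42 and 4.09 ± 1.47 in the KO groups. For the 9 genes in the midbrain, the log2 difference between genotypes ran from -0.23 (En2, 95% interval -0.47 to 0.01) to 0.03 (Tcf7l2, -0.48 to 0.55). Lhx9 had the narrowest interval, at -0.07 (-0.20 to 0.07).

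CCI was compared with the sham operation within each genotype and region. In none of these 4 comparisons did a member pass, nor did any of the 22626 probe sets (0%). In the midbrain 0 members had an unadjusted limma p under 0.05 in either genotype. In the medulla the count was 0 in control mice and 1 in KO mice, the Tcf7l2 probe set 1426639_a_at with 0.56. The largest CCI difference of a gene in control mice was that of Otx2 in the medulla, 0.86 (SE 0.45, 95% interval -0.11 to 1.83, adjusted p = 1). In the midbrain Lhx9 had 0.02 (-0.17 to 0.21) in control and -0.08 (-0.27 to 0.11) in KO mice, and Meis2 0.04 (-0.19 to 0.27) and -0.04 (-0.27 to 0.18).

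**Figure D4:**
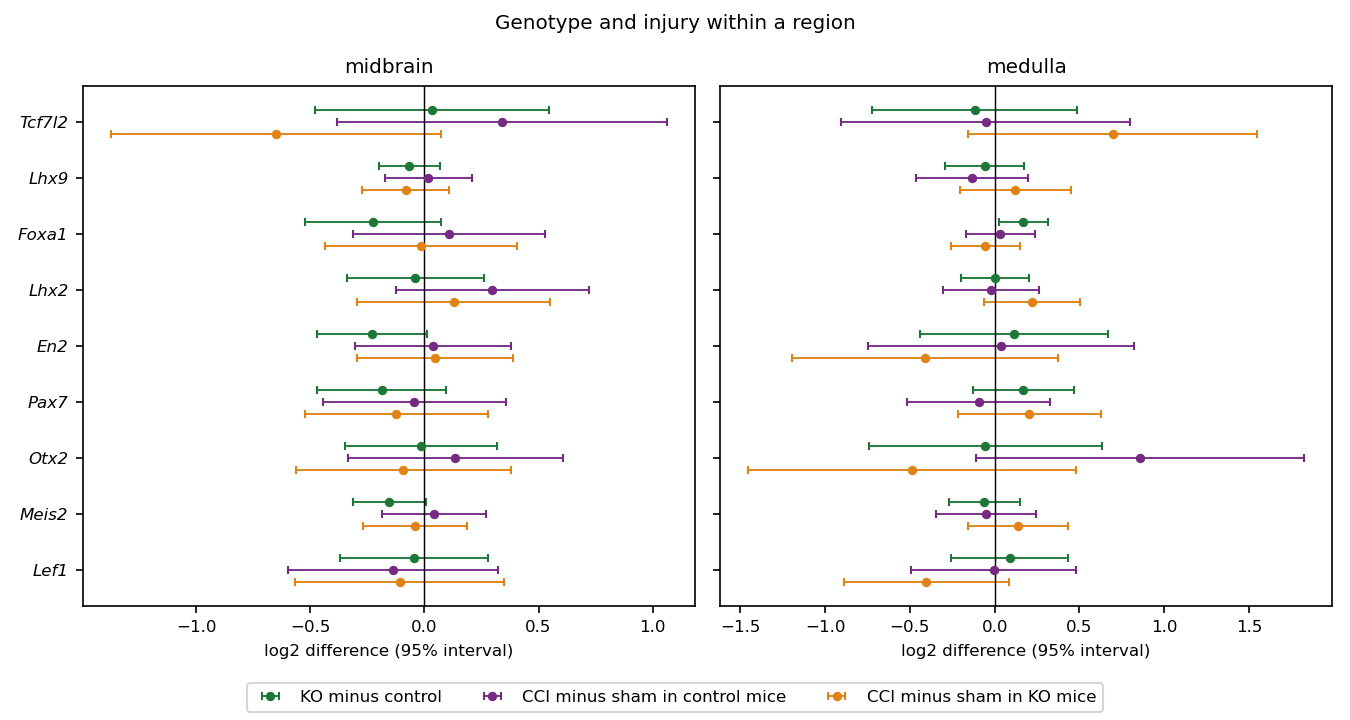
Log2 difference with its 95% interval (limma) for KO minus control and for CCI minus sham in each genotype, for the brightest probe set of the 9 genes in midbrain and medulla. No interval belongs to an adjusted p under 0.05, and the widest are those of Tcf7l2, Otx2 and En2.

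The response to CCI was also compared between genotypes, and each effect between regions. In all 4 of these comparisons 0 members and 0% of all probe sets passed in limma, with 1 member probe set each at an unadjusted p under 0.05. For the difference in CCI response between genotypes these were Tcf7l2 1429428_at in the midbrain (0.26) and Tcf7l2 1426639_a_at in the medulla (1.0). Between regions it was Foxa1 for genotype (-0.39, adjusted p = 1) and Lhx9 1431598_a_at for CCI (0.35). For the brightest Tcf7l2 probe set the genotype difference in CCI response was -0.99 in the midbrain (95% interval -2.01 to 0.03, adjusted p = 0.822). It was -0.63 without KO sham midbrain 2 and -0.36 without KO sham midbrain 2 and 4, while 1429428_at read 0.26 and 0.30 with and without both. For Otx2 in the medulla it was -1.34 (-2.71 to 0.03, adjusted p = 1). None of the genes measured in the 6 pathway lists above passed for genotype, CCI or their interactions either.

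The level of all 9 genes was set against markers of tissues that can enter a dissected block, since such markers varied between arrays. Lists of 10 tissues or cell types were averaged per array and compared with each of the 9 genes within each region, which made 180 relations, each with 100000 permutations. By Pearson's r, 3 had an adjusted p under 0.05, and by Spearman's rho also 3, of which 2 were the same. The arrays share groups and preparation, and the part of the markers in the regional differences was not tested.

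Otx2 in the medulla went with choroid plexus genes. Over the 16 medulla arrays Pearson's r was 0.93 (permutation p = 1e-05, the smallest they can give, adjusted p = 0.0018) and Spearman's rho 0.94 (permutation p = 1e-05, adjusted p = 0.0018), and r was 0.91 without the 2 farthest arrays. It was 0.95 over the 7 arrays of the lower code, 0.96 over the 8 of the higher code and 0.92 with group means removed. In the order of replicates, Otx2 in the medulla read 20.0, 35.2, 69.4 and 8.80 for control sham mice. It read 103, 62.6, 102 and 19.8 for control CCI, 85.8, 30.1, 24.5 and 88.1 for KO sham, and 11.2, 33.2, 34.5 and 57.5 for KO CCI mice. The lowest Otx2 arrays, control sham medulla 4 and KO CCI medulla 1, were also lowest for Kl, a choroid plexus gene, with 19.5 and 24.6, and the highest, control CCI medulla 1 and 3, read 299 and 392.

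In the midbrain the same relation was 0.08 (permutation p = 0.775). The mean log2 level of the list spanned 5.36 to 5.92 there and 5.51 to 8.35 in the medulla. With so narrow a range the midbrain value cannot show that a relation is absent. Of 9 measured choroid plexus genes 8 were lower in the midbrain, 0 higher and 1 did not pass. Their summed intensity per array was 346.5 to 5390 in the midbrain and 1070 to 11430 in the medulla. In the medulla it ran from 1070 to 10080 in control sham, from 8439 to 11430 in control CCI, from 7178 to 10730 in KO sham and from 1665 to 9984 in KO CCI. Ttr alone read 181 to 5211 in the midbrain and 936 to 9689 in the medulla, a large part of these sums. Kcne2 was at or below 0 on 4 of 16 midbrain arrays, and the other 8 genes were above 0 on all. Several of these were dim in the midbrain, with medians of 10.5 for Aqp1, 15.5 for Cldn2 and 21.0 for Kl. So Otx2 was higher in the midbrain, where these markers were lower, and within the medulla was higher on the arrays where they were higher.

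Lhx2 in the midbrain went with markers of cortex and hippocampus. Pearson's r was 0.84 (permutation p = 0.0001, adjusted p = 0.009) and Spearman's rho 0.78 (permutation p = 0.00061, adjusted p = 0.0498), with r at 0.63 without the 2 farthest arrays, 0.80 over the 7 arrays of the lower code and 0.90 over the 8 of the higher. Of 8 measured markers 3 were higher in the midbrain, 2 lower and 3 did not pass. Their summed intensity per array was 1946 to 2661 in the midbrain and 3110 to 3917 in the medulla. The higher medulla sum was that of 1 gene, Lamp5, with 326 to 919 in the midbrain and 2306 to 3143 in the medulla. Nrgn ran the other way, with a median of 750 in the midbrain and 123 in the medulla, and the mean log2 level of the list was 7.05 to 7.75 in the midbrain and 7.04 to 7.27 in the medulla. Tbr1, a defining cortical factor, was at or below 0 on 5 of 16 arrays of each region.

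The brightest Tcf7l2 probe set went with endothelial genes in the midbrain. With the same genes r was 0.73 for 1426639_a_at, 0.55 for 1425229_a_at and -0.15 for 1429428_at, without a permutation test. The mean log2 level of these genes was highest on KO sham midbrain 2 (7.52), control CCI midbrain 3 (7.46) and KO sham midbrain 4 (7.45). These 3 arrays were also the highest for the brightest probe set, and the relation without all 3 was not computed. For the brightest, Pearson's r was 0.82 (permutation p = 0.00016, adjusted p = 0.0096), Spearman's rho 0.74 (permutation p = 0.00157, adjusted p = 0.0706), and r was 0.73 without the 2 farthest arrays, 0.80 over the 7 arrays of the lower code and 0.94 over the 8 of the higher. Of 10 endothelial genes 0 were higher in the midbrain, 3 lower and 7 did not pass, and their summed intensity was 2097 to 2938 in the midbrain and 2312 to 2875 in the medulla, none being at 0 on any array. With thalamus and habenula markers, of which 6 of 9 were higher in the midbrain, 0 lower and 3 did not pass, r in the midbrain was 0.02 for Tcf7l2 (permutation p = 0.943) and -0.12 for Lhx9 (permutation p = 0.658). In the medulla Tcf7l2 went against these markers, with rho -0.77 (permutation p = 0.00083, adjusted p = 0.0498) and r -0.68 (permutation p = 0.00284, adjusted p = 0.102), and -0.78 without the 2 farthest arrays. That relation did not hold within both codes, r being -0.10 over the 7 arrays of the lower code and -0.92 over the 8 of the higher. Lhx9 in the medulla had r -0.47 (permutation p = 0.0634, adjusted p = 0.399) and rho -0.56 (permutation p = 0.0262, adjusted p = 0.43). Those markers summed to 3804 to 5391 in the midbrain and 3144 to 3860 in the medulla. Synpo2 was at or below 0 on 13 midbrain and 15 medulla arrays.

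En2 in the medulla stood out on a pair of arrays. It read 127 on KO sham medulla 3 and 49.9 on control sham medulla 3, where the other 14 medulla arrays lay between 17.2 and 36.8. The mean log2 level of the cerebellum list was 10.26 on KO sham medulla 3, above the 8.06 to 9.05 of the other medulla arrays. En2 and this list correlated at 0.85 in the medulla (permutation p = 0.00468, adjusted p = 0.14; rho 0.48, permutation p = 0.0606), and at 0.42 without KO sham medulla 3, so the relation rests on that array. Of 9 measured cerebellar genes 5 were lower in the midbrain, 0 higher and 4 did not pass. Their summed intensity was 4268 to 6153 in the midbrain and 5382 to 13230 in the medulla, and none was at 0. Without KO sham medulla 3 and KO sham midbrain 2 and 4 the regional difference of En2 was 0.96 (limma adjusted p = 2.06e-08), and without both medulla arrays it was 1.03 (adjusted p = 1.43e-10). The number of member probe sets that passed was 11 in both cases.

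**Figure D5:**
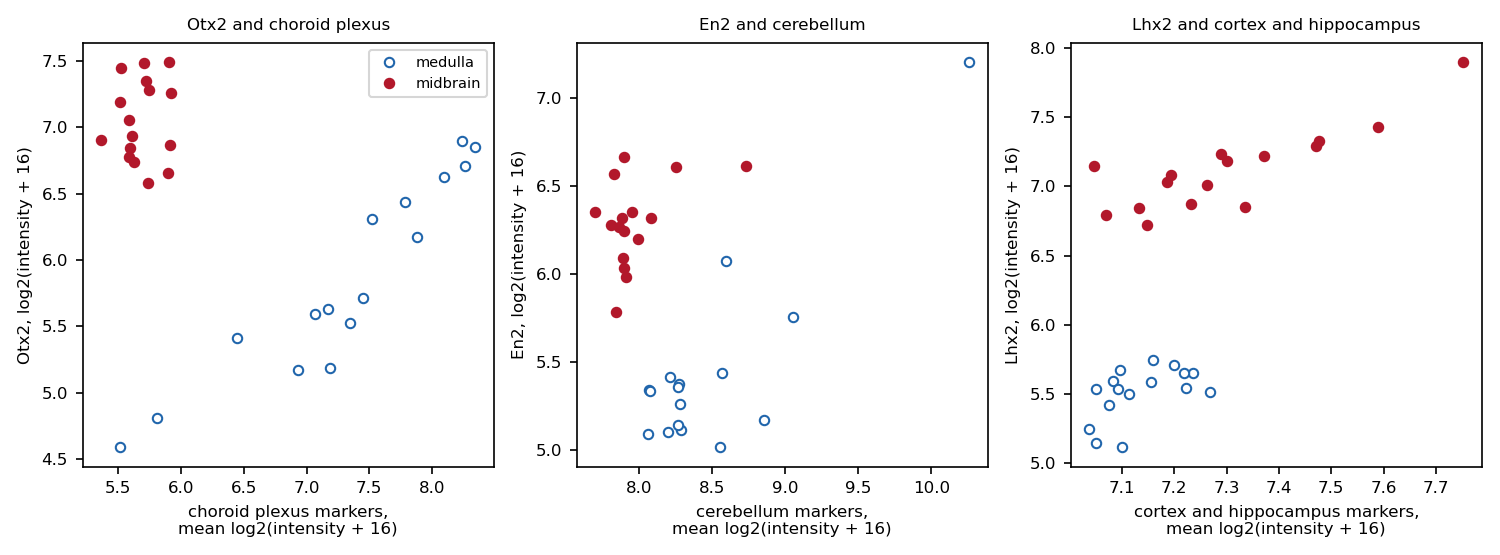
Otx2, En2 and Lhx2, each as log2(intensity + 16), against the mean log2 level of the choroid plexus, cerebellum, and cortex and hippocampus markers on the 16 medulla (open) and 16 midbrain (filled) arrays. Otx2 goes with the choroid plexus markers in the medulla (r 0.93). In the midbrain r is 0.08, over a narrow range of these markers. The En2 relation hangs on KO sham medulla 3 at the upper right, and Lhx2 follows its markers in the midbrain (r 0.84).

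KO sham medulla 3 also read low for Tcf7l2 and for the brighter Lhx9 probe set, while its En2 value of 127 was the highest of the medulla. Its Tcf7l2 values were -2.82, 12.7, -14.4 and -0.528 on 1429427_s_at, 1429428_at, 1425229_a_at and 1426639_a_at, the lowest medulla value on all but the third of these, and its Lhx9 value on 1419324_at was 17, also the lowest. Lhx9 on 1431598_a_at read 47.6 there, the highest of the medulla. Tcf7l2 and the cerebellum list correlated at -0.70 over the 16 medulla arrays (permutation p = 0.0321, adjusted p = 0.353; rho -0.16, permutation p = 0.549), and at 0.01 without this array.

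The genes whose level followed each member most closely over the 16 midbrain arrays, by Pearson's r among genes outside the dimmest 33.3%, are given as a description. For Tcf7l2 on 1429427_s_at they were Nucks1 (0.94), Arf6 (0.94) and Eprs (0.92). For Lhx9 they were Mrm1 (0.88), Dnajc28 (0.83) and Mrps21 (0.83), and for Lhx2 Camkv (0.87), Nnat (0.86) and Ccn3 (0.86). Foxa1 had C230091D08Rik (0.86), Ddx52 (0.86) and Fzd7 (0.85), and Otx2 had Nmt1 (0.89), Zfp566 (0.88) and Ncl (0.86). En2 had Mad1l1 (0.80), Sfmbt2 (0.79) and Nudt19 (0.79), and Lef1 had Ogfod3 (0.80), Map2k3 (0.79) and Vps4a (0.75). The weakest were those of Pax7, with Nadk (0.73), Uty (0.70) and Insig2 (0.68), and of Meis2, with Atg2b (0.72), Gnas (0.72) and Pvalb (0.71). No member was among the 3 genes nearest to another member.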

How the data were processed

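Total RNA of midbrain and medulla was hybridised to Affymetrix mouse arrays. The authors deposited linear intensity values per probe set that include negative values; the summary software and scaling are not given in the sources used here. Values below 0 were set to 0, 16 was added, log2 was taken and arrays were quantile normalised, after leaving out 64 control probe sets. Of 22626 probe sets, 20380 had 1 gene symbol, 691 several and 1555 none; 2.15% of values were at or below 0. limma 3.58.1 in R 4.3.3 (lmFit, eBayes) was fitted to the 8 group means: region comparisons used all 32 arrays and the others the 16 of a region, with Benjamini-Hochberg adjustment over all probe sets, and was tested on simulated data. Alternatives were other constants and normalisations, a filter on dim probe sets, array weights, blocks by mouse, title number or array code, single codes, and leaving out each array. Intervals are 95% intervals. With 4 arrays per group, that number limits the precision.

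The members and gene lists were chosen with earlier results of these data known. All member probe sets are named, the brightest stands for its gene, and up to 4 genes with the largest difference are named per pathway list, along with some chosen after their values were seen. Midbrain and medulla of a mouse were paired by consecutive array numbers. After removing group means, such pairs correlated at 0.171 on average (-0.05 to 0.363, 16 mice) and other pairs at -0.057. For KO sham 3 and 4 the titles' numbers and the array numbers pair differently, and the array numbers were used. No pair of arrays was identical. The labels call the 4 arrays of a group separate mice.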

Additional observations from a re-analysis of the deposited data

Results flagged for a closer look

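Within each group of 4 arrays, the array farthest from the others was compared with Dixon's 95% critical value, which chance passes about 1 time in 20 groups; 6 of 104 such tests passed, about that rate. En2 read 127 on KO sham medulla 3, where the next array of its group had 25.1, and 49.9 on control sham medulla 3, where the next had 21.7. Tcf7l2 on 1425229_a_at read -30.4 on control CCI medulla 3, against -4.61 to 0.585 on the others of its group, values near or below 0. On 1426639_a_at it read 31.5 on KO CCI midbrain 1, against 58.6 to 62.5, and on 1429428_at it read 32.9 on KO CCI medulla 2, against 42.8 to 43.2. Foxa1 read -0.819 on control sham medulla 1, against 3.21 to 3.79.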

How the results depend on the processing

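The number of member probe sets past the threshold between regions was 11 in every setting run over all conditions, except 9 among arrays of the higher code and 6 with the dimmest 33.3% of probe sets left out, where only 6 member probe sets were tested. As a replicate block, either the number in the titles or the mouse gave 11 as well, and neither block changed the call of a member there; within single conditions the mouse as a block ended the calls of En2 (control CCI) and Tcf7l2 1426639_a_at (control sham) and no other. No member's regional difference changed direction. Leaving out the dimmest 33.3% gave 6 for control sham, 5 for control CCI and 5 for KO sham mice. Within the higher code the counts were 6 in control CCI mice and 5 in control sham mice, and within the lower code 3 in control sham mice, where few arrays remain. In the 10 comparisons of genotype, CCI and their interactions every setting that could be run gave 0 members. Leaving out KO sham medulla 3 together with KO sham midbrain 2 and 4, or with control sham medulla 3, was chosen after seeing the data and gave 11 each time. Signal limits the size of the difference most for Foxa1 and Tcf7l2 1425229_a_at, since their medulla values lie near or below 0 and it follows the added constant. Pax7 and Lef1, which did not pass, were dim in both regions. Their mean intensity exceeded that of 25.2% and 32.2% of probe sets in the midbrain, and of 20.8% and 28% in the medulla. Both were among the probe sets that the filter on the dimmest 33.3% left out.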
